A study of Macaca mulatta with 51 samples.

Results

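Gene expression in subcutaneous adipose tissue (AT) of diet-induced obese (DIO) rhesus macaques at washout, 16 weeks after fibroblast growth factor 21 (FGF21) treatment was stopped, was compared with expression in the same animals before treatment. The question was which genes had not returned to their pre-treatment level. The comparison used the 10 pre-treatment and 8 washout AT libraries, 18 of the 48 libraries with counts, and 8 animals had both. The 9 post-treatment AT libraries, taken at the end of 12 weeks of treatment, entered the model but are given here only beside the washout values. All groups came from a cohort of 10 non-diabetic macaques, 5 males and 5 ovariectomized females of 11 to 22 years, kept on a high-fat, high-sucrose diet for at least 2 years and through the study. Native human FGF21 was injected subcutaneously once a day in rising doses, with 1 animal held at a lower final dose. There was no untreated group sampled at the same times, so that time, age, weight regain and the order of sampling cannot be told apart from the end of treatment.

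FGF21 is a hormone secreted mainly by the liver that signals through FGF receptors, chiefly FGFR1, bound to the co-receptor beta-klotho (KLB), and adipocytes are among its main target cells. Subcutaneous AT stores triglyceride in adipocytes, which also secrete leptin and adiponectin, and holds progenitor, endothelial and immune cells between them. Treatment with FGF21 lowers body weight in obese animals, and AT remodels during weight loss and again during weight regain.

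The libraries held 15756491 to 23940980 counts on genes, with a median of 18903787, and 13868 to 14418 genes with at least 1 count. The adipocyte markers were abundant in both groups. ADIPOQ, the gene of adiponectin, lay between 1641 and 4469 CPM (gene counts scaled to a common library size) pre-treatment and between 1166 and 4327 CPM at washout, and the 12 mature adipocyte markers with counts (of 16 listed) summed to at least 16402 CPM in every library. The 16 skeletal muscle markers summed to at most 213 CPM. On the first principal component, 6 of the 8 washout libraries lay at the low end, from -57.4 to -31.5, whereas those of animals 23004 and 26292 lay at 9.30 and -0.31 among the pre-treatment libraries. The library numbers in the labels fall into 3 series, and the washout library of animal 26292 was the only AT library of the first series. Pre-treatment and washout libraries of 4 of the 8 animals came from the same series. The labels do not say what the series are, so that whether they were prepared or sequenced apart cannot be told.

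**Figure D1:**
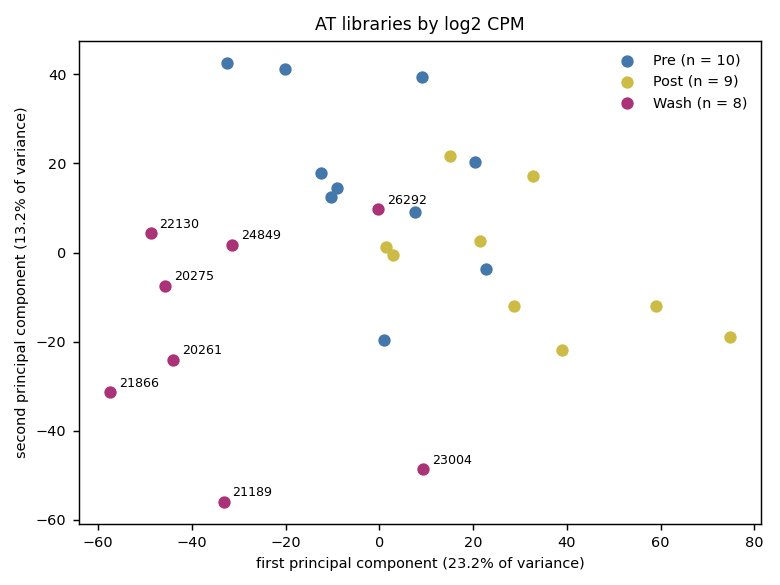
First against second principal component of log2 CPM for the 27 AT libraries, coloured by time point, with the washout libraries marked by animal number. Of the washout libraries, 6 lie at -31.5 or below on the first component, and those of animals 23004 and 26292 lie apart from them at 9.30 and -0.31.

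A large share of the AT transcriptome differed between washout and pre-treatment. A gene was called differentially expressed (DE) at an adjusted p under 0.05 (edgeR quasi-likelihood test, Benjamini-Hochberg adjustment) and a log2 fold change whose size exceeded 0.26. Of 13367 genes tested, 2735 were DE (20.5%), 1671 of them higher at washout (12.5%) and 1064 lower (7.96%), and an unadjusted p under 0.05 was found for 4550 (34%). With library size only as the normalization the split was 2311 higher and 590 lower, or 79.66% higher among DE genes in place of 61.1%, and the median log2 fold change of all genes was 0.08 in place of -0.02. The fit to the pre-treatment and washout libraries only gave 1848 higher and 1531 lower (54.69% higher). With voomWithQualityWeights the counts were 2066 and 1802 (53.41%), so the lean to higher genes depended on the model. Most changes were small, the median log2 fold change being 0.66 for the higher and -0.50 for the lower genes, and 459 and 150 genes, respectively, changed by more than 2-fold. Every washout library exceeded every pre-treatment library for 272 genes (2.03%) and lay below every one for 31 genes (0.232%), together 2.27% of genes. Within animals, 1232 genes were higher in all 8 (9.22%) and 881 were lower in all 8 (6.59%).

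The count of DE genes was similar without the libraries that stood apart. Without the washout libraries of animals 23004 and 26292, 2778 genes were DE, 1461 higher and 1317 lower, and 2272 of the 2735 were still called. The 4 animals with both libraries in one number series gave 1950 DE genes, 1151 higher and 799 lower, of which 1532 were among the 2735. With the library number series as a covariate, 3282 genes were DE, 1828 higher and 1454 lower, and 2554 of the 2735 were still called. The first-series term of that fit takes up the washout library of animal 26292 alone. Leaving out 1 animal at a time gave 2133 to 2958 DE genes. When the model had no term for the animal, that is, without the pairing, 2422 genes were DE, 1522 higher and 900 lower.

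The genes of FGF21's own signaling route were not called DE, with KLB near the threshold. Of the 6 genes of the receptor complex list, 0 were DE by edgeR, 1 had an unadjusted p under 0.05, and 1 each was DE by DESeq2 and by voomWithQualityWeights. KLB ranged from 52.6 CPM through a median of 92.1 to 140 pre-treatment and from 26.5 through 61.4 to 94.3 at washout. It was lower in all 8 animals, with a log2 fold change (-0.66, SE 0.26) that did not pass the test (adjusted p = 0.0811), and the groups overlapped. KLB is the gene that DESeq2 and voomWithQualityWeights called, and it was DE lower under 6 of 32 alternatives, among them the fit to the pre-treatment and washout libraries only (adjusted p = 0.00615) and the animals with both libraries in one series (adjusted p = 0.0410). FGFR1, the main FGF receptor of adipocytes, had medians of 234 and 253 CPM (change of 0.09 in log2, SE 0.10, adjusted p = 0.559). FGF21 itself was near the detection limit, between 0 and 2.16 CPM at washout, and its log2 fold change of -1.0 (SE 0.58) had an adjusted p of 0.229. Of 12 genes of the ERK feedback list, which includes sprouty and dual-specificity phosphatase genes induced by FGF receptor signaling, 0 were DE by edgeR, DESeq2 or voomWithQualityWeights and 0 had an unadjusted p under 0.05.

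CETP, CPXM1 and LEP, chosen with their large changes by the end of treatment known, had washout levels that overlapped those before treatment. The post-treatment comparison shares the pre-treatment libraries with the washout comparison, so the 2 changes are given side by side without a test between them. CETP, which transfers cholesteryl esters between lipoproteins, ranged from 6.23 CPM through a median of 21.7 to 46.0 pre-treatment, from 18.2 through 91.9 to 201 post-treatment, and from 11 through 18.0 to 46.9 at washout. The washout and pre-treatment ranges nearly coincided, with a log2 change of 0.04 (SE 0.27, adjusted p = 0.927) after one of 2.0 post-treatment. CPXM1, a carboxypeptidase-like secreted protein, had medians of 42.5, 124 and 48.9 CPM at the 3 time points, and its log2 fold change was 1.53 post-treatment and 0.15 at washout (adjusted p = 0.544). LEP, the gene of leptin, had medians of 2763, 635 and 2552 CPM, with log2 fold changes of -1.93 and -0.06 (adjusted p at washout 0.922), and 7 of 8 animals were lower at washout than pre-treatment.

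A further 7 genes had no call at washout, and all but ANGPTL8 and UCP1 among them were DE post-treatment. SLC38A3, a glutamine transporter, had medians of 10.5, 0.99 and 20.7 CPM, and its log2 fold change was -3.13 post-treatment and 0.63 at washout (SE 0.36, adjusted p = 0.229), where 7 of 8 animals were higher than pre-treatment. AADACL3, of the arylacetamide deacetylase family, had medians of 2.67, 0.16 and 2.01 CPM, with a log2 fold change of -2.95 post-treatment and -0.51 at washout (adjusted p = 0.174). PPARG, the master regulator of adipocyte differentiation, had medians of 310, 188 and 278 CPM, and log2 fold changes of -0.70 and -0.21 (adjusted p at washout 0.401). For SERPIND1, a thrombin inhibitor, the log2 fold changes were 1.42 post-treatment and -0.32 at washout (adjusted p = 0.582), and for KDM3A, a histone demethylase, 0.61 and 0.15 (adjusted p = 0.559). The washout differences of CETP, LEP, SERPIND1 and KDM3A were smaller than their standard errors, and their sign changed with the libraries or the normalization used. ANGPTL8, an inhibitor of lipoprotein lipase activity, was 9.75 to 143 CPM pre-treatment and 15.6 to 191 CPM at washout (log2 fold change 0.35, SE 0.54, adjusted p = 0.684, higher in 4 of 8 animals), after a log2 fold change of -0.90 post-treatment (adjusted p = 0.241). UCP1, the uncoupling protein of brown fat, had medians of 0.66 and 0.74 CPM and a log2 change of 0.02 (SE 0.47, adjusted p = 0.980), whose sign also changed with the libraries used, and -1.28 post-treatment (adjusted p = 0.0922).

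NRG4, a growth factor secreted by adipocytes, was DE on both sides of its pre-treatment level. It ranged from 2.89 CPM through a median of 5.35 to 9.71 pre-treatment, from 0.90 through 1.54 to 3.78 post-treatment and from 4.64 through 9.27 to 12.7 at washout. All 8 animals were higher at washout than pre-treatment, although the ranges overlapped. The log2 fold change was -1.53 post-treatment (adjusted p = 0.00238) and 0.70 at washout (SE 0.25, adjusted p = 0.0468). The washout call lay at the threshold and was lost under 20 of 32 alternatives, with adjusted p-values up to 0.108. ABCG1, a cholesterol efflux transporter, was likewise DE in both comparisons, in the other order. Its medians were 90.6, 225 and 60.5 CPM, with log2 fold changes of 1.27 post-treatment and -0.68 at washout (SE 0.20, adjusted p = 0.0192), and all 8 animals were lower at washout than pre-treatment. Its washout call was lost under 5 of 32 alternatives.

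**Figure D2:**
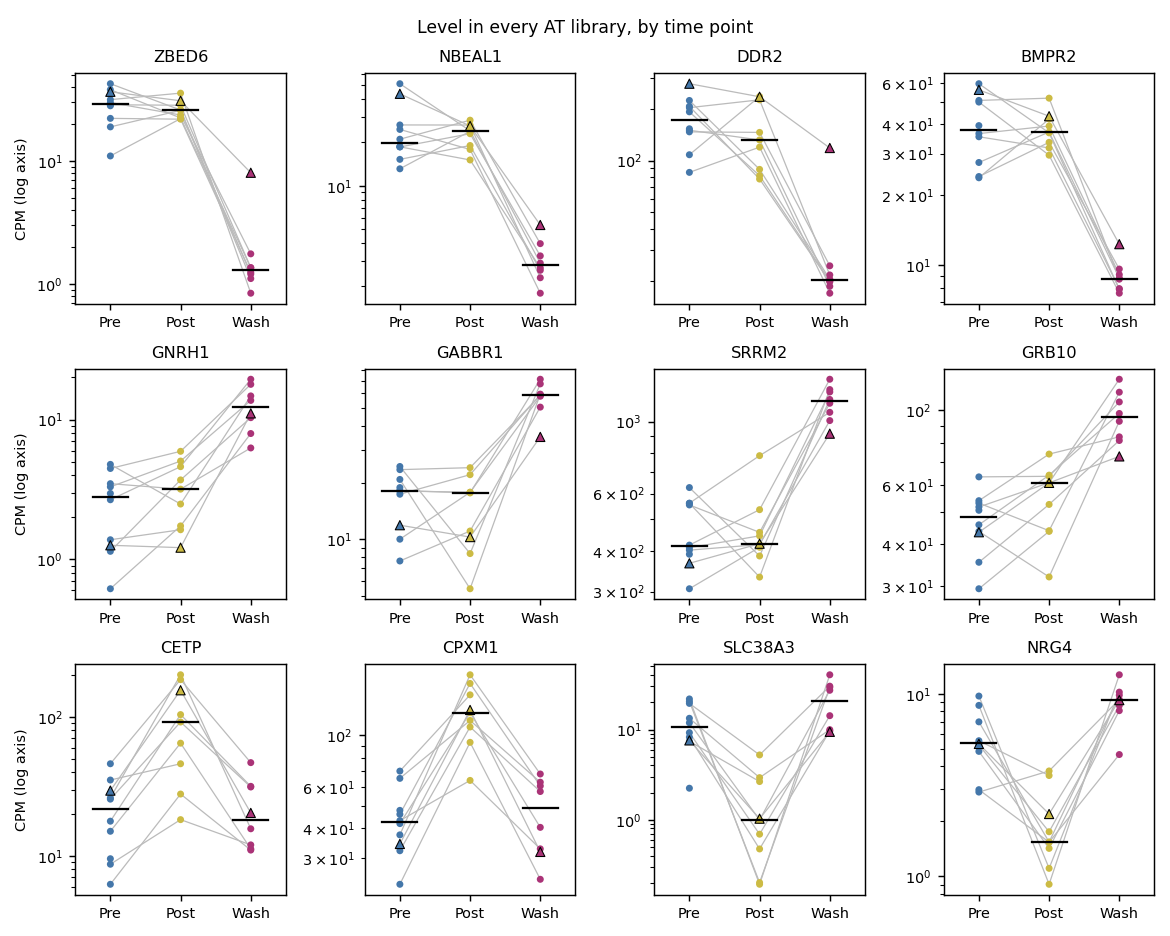
CPM (log axis) of 12 genes in every AT library at pre-treatment (Pre), post-treatment (Post) and washout (Wash), with lines joining the libraries of an animal, bars at the medians and triangles for animal 26292. ZBED6, NBEAL1, DDR2 and BMPR2 lie low only at washout and GNRH1, GABBR1, SRRM2 and GRB10 high. At post-treatment the medians of CETP and CPXM1 are higher and that of SLC38A3 lower than pre-treatment, with ranges that overlap. The washout values of these last genes overlap the pre-treatment range.

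Metabolic gene lists had few DE genes at washout, where 20.5% of all genes tested were DE. Triglyceride and fatty acid synthesis had 1 DE gene of 23, the cytosolic ribosomal proteins 2 of 76, nuclear-encoded respiratory chain subunits 1 of 79, fatty acid oxidation 2 of 20, glycolysis 2 of 16, and pyruvate metabolism and the TCA cycle 2 of 35. None was DE by edgeR among the 23 genes of cholesterol synthesis (3 at an unadjusted p under 0.05, 1 by DESeq2, 3 by voomWithQualityWeights), the 10 of lipolysis and lipid droplets (3, 2 and 5) and the 14 adipogenic transcription factors (1, 0 and 1). The same held for the 17 genes of browning and thermogenesis (1 at an unadjusted p under 0.05, 0 by DESeq2, 1 by voomWithQualityWeights) and the 12 mature adipocyte markers (4, 0 and 5). The median log2 fold change was 0.20 over triglyceride and fatty acid synthesis, -0.37 over lipolysis and lipid droplets and -0.27 over the mature adipocyte markers, against -0.02 over all genes. Summed over the 12 markers, the mature adipocyte level had a median of 30964 CPM pre-treatment and 26700 CPM at washout, and was higher at washout in 1 of 8 animals. ADIPOQ, at -0.46 on the log2 scale with an SE of 0.22 (adjusted p = 0.138), was lower in 7 of 8 animals and was DE lower under 7 of 32 alternatives.

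Single metabolic genes passed the test within these lists. MLXIPL, the carbohydrate-responsive transcription factor ChREBP, ranged from 37.1 CPM through a median of 58.0 to 85.3 pre-treatment and from 68.8 through 134 to 215 at washout. It rose in all 8 animals by a log2 change of 1.01 (SE 0.24, adjusted p = 0.00427), and had shown -0.40 post-treatment (adjusted p = 0.222). ENO2, a glycolytic enolase better known from neurons, rose by 1.24 (SE 0.22, adjusted p = 3.23e-04), from a median of 4.48 to 11.2 CPM. The decreases of LDHA (lactate dehydrogenase), HADHA (a subunit of the mitochondrial trifunctional protein) and SDHC (a succinate dehydrogenase subunit) were near -0.3 on the log2 scale with adjusted p-values of 0.0408, 0.0312 and 0.0463, and each was lost under 12 to 14 of 32 alternatives. ACADL, a fatty acyl-CoA dehydrogenase, rose by 0.39 (adjusted p = 0.0428, lost under 16 of 32). The ribosomal protein genes RPL31 and RPL23A, families with many pseudogene copies that make their counts uncertain, rose by 0.38 and 0.31 and lost the call under 13 and 9 of 32.

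Of the 10 largest decreases at washout, all but CACNA2D1 and ARFGEF3 were genes without a call post-treatment. The 10 largest changes in each direction were taken, by rule, from DE genes that averaged 5 CPM or more and moved in 1 direction in all 8 animals, 836 of them higher and 582 lower. ZBED6, a transcription factor derived from a DNA transposon, ranged from 11 CPM through a median of 29.3 to 42.6 pre-treatment, from 21.9 through 25.9 to 35.7 post-treatment, and from 0.84 through 1.30 to 8.03 at washout. Every washout library lay below every earlier one. The log2 fold change was -4.02 (SE 0.31, adjusted p = 2.07e-07), a level 16.3-fold lower, against -0.06 post-treatment. In the RefSeq annotation ZBED6 lies within another gene, ZC3H11A, which rose by 0.27 (adjusted p = 0.0365), and reads of both may be hard to assign. NBEAL1, a BEACH domain protein, ranged from 13.1 CPM through 19.9 to 51.1 pre-treatment and from 1.79 through 2.79 to 5.34 at washout, without overlap, a decrease of 3.04 on the log2 scale (log2 fold change -3.04, SE 0.21, adjusted p = 2.80e-08).

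The 10 decreases included the receptors DDR2 and BMPR2. DDR2, a receptor tyrosine kinase for fibrillar collagen, ranged from 85.3 CPM through 172 to 280 pre-treatment and from 16.9 through 20.2 to 118 at washout. The highest washout value was that of animal 26292 and the next was 24.4 CPM, so that the groups overlapped through 1 library. The log2 fold change was -2.74 (SE 0.28, adjusted p = 3.86e-06), and -2.99 without that library. BMPR2, the type II receptor for bone morphogenetic proteins, lay between 23.7 and 59.7 CPM pre-treatment and between 7.60 and 12.3 CPM at washout, without overlap (log2 fold change -2.15, SE 0.17, adjusted p = 1.46e-07). CACNA2D1, a regulatory subunit of voltage-gated calcium channels, had already fallen post-treatment, by -1.15 (adjusted p = 0.00850), from a median of 53.7 to 22.8 CPM, and had a median of 14.0 CPM at washout (log2 fold change from pre-treatment -2.14, SE 0.27). ARFGEF3, of the family of exchange factors for ARF GTPases, showed the same order, with medians of 9.42, 5.28 and 1.52 CPM and log2 fold changes of -0.98 (adjusted p = 0.0228) and -2.54. The others were PSD3, an exchange factor for ARF6 (-2.47), MGAT5, a glycosyltransferase that branches N-glycans (-2.40), GPRIN3, of the G protein-regulated inducers of neurite outgrowth (-2.12), and HIPK1, a nuclear protein kinase (-2.11). Their adjusted p-values at washout lay between 4.11e-06 and 1.35e-05, and post-treatment between 0.0742 and 0.823.

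The washout library of animal 26292 lay nearest to the pre-treatment level for most of these genes. Of the 8 washout libraries it was the highest for 9 of the 10 decreases and for 652 of the 1064 lower DE genes (61.3%), and the lowest for 5 of the 9 increases described here and 594 of the 1671 higher DE genes (35.6%). For MGAT5 it held 20.2 CPM against 2.42 to 4.20 CPM in the other 7, and for HIPK1 44.1 CPM against 5.76 to 11.6. Without it, the 10 decreases had log2 fold changes of -2.18 to -4.51. Among the 4 animals with both libraries in one number series, which exclude 26292, they were -2.03 to -4.28, with all 10 adjusted p-values under 0.05. With the library number series as a covariate in AT, the 10 decreases had log2 fold changes of -2.18 to -4.55, and all adjusted p-values were under 0.05. The term for the first series fits the washout library of 26292 alone, so this fit also sets that library aside. All these fits leave out or absorb the library nearest to pre-treatment, which favours larger decreases by construction. The genes were also picked for a decrease in all 8 animals, so these fits are no independent measure of it. The same limit applies to the values given without that library for DDR2, DDI2, RC3H2, LRP6, ATF6 and PDGFRA. The part of the library series in these changes was not tested further.

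DDI2, RC3H2 and LRP6, chosen with their increase in skeletal muscle at washout known, fell in AT. DDI2, a protease that activates the proteasome regulator NFE2L1, ranged from 3.62 CPM through 5.98 to 8.10 pre-treatment and from 1.26 through 1.56 to 5.24 at washout (log2 fold change -1.65, SE 0.21, adjusted p = 1.45e-05). It overlaps RSC1A1 in the RefSeq annotation, which fell by 1.07 on the log2 scale (log2 fold change -1.07, adjusted p = 1.17e-05). RC3H2, the RNA-binding protein Roquin-2, had medians of 21.1 and 4.94 CPM (change of -1.98 in log2, SE 0.18, adjusted p = 1.04e-06). LRP6, the Wnt co-receptor, had medians of 89.5 and 19.8 CPM (-1.89, SE 0.26, adjusted p = 3.90e-05). Without the washout library of 26292, the log2 fold changes were -1.89 for DDI2, -2.16 for RC3H2 and -2.05 for LRP6. All 8 animals were lower for each of the 3 genes, and all had log2 fold changes between -0.19 and 0.22 post-treatment, none of them DE.

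Of the 10 largest increases, 9 are described, of genes with pre-treatment medians of 1.68 to 18.1 CPM. GNRH1, which encodes the precursor of gonadotropin-releasing hormone, ranged from 0.62 CPM through 2.82 to 4.78 pre-treatment, from 1.21 through 3.18 to 5.93 post-treatment, and from 6.27 through 12.4 to 19.4 at washout. No washout library overlapped an earlier one, and the log2 fold change was 2.30 (SE 0.25, adjusted p = 4.23e-06), a level 4.94-fold higher. HIF3A, a hypoxia-inducible factor subunit, had medians of 1.74, 1.40 and 8.60 CPM and rose by 2.17 (SE 0.36, adjusted p = 2.45e-04). GABBR1, a subunit of the GABA-B receptor, ranged from 7.66 CPM through 18.1 to 24.4 pre-treatment and from 35.1 through 58.6 to 71.1 at washout, without overlap (log2 fold change 1.78, SE 0.23, adjusted p = 1.84e-05).

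The remaining increases also appeared at washout without a call post-treatment. They were ENDOU, an endoribonuclease (2.15), GNB3, a G protein beta subunit (2.05), ITGA10, a collagen-binding integrin subunit (1.98), EFNA4, an ephrin ligand (1.97), MSS51, a mitochondrial protein best known from muscle (1.96) and KIAA0895L (1.94). Their adjusted p-values ranged from 8.73e-07 for MSS51 to 2.15e-04 for ENDOU. GNRH1, GNB3, EFNA4, MSS51, KIAA0895L and GABBR1 did not overlap between washout and pre-treatment, and the other 3 did. Of all genes, 2.03% lay above every pre-treatment library at washout, and the rule that picked these 9 favours such genes. Post-treatment log2 fold changes of the 9 lay between -0.24 and 0.38. GNRH1 and GNB3 overlap KCTD9 and P3H3 in the RefSeq annotation, whose log2 fold changes at washout were 0.08 and 0.04, neither of them DE.

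Many genes of pre-mRNA splicing rose at washout. Of 38 splicing factors tested, 16 were DE higher (42.1%, against 12.5% of all genes) and 0 lower by edgeR, and 16 and 17 higher with 0 lower by DESeq2 and voomWithQualityWeights, 23 had an unadjusted p under 0.05, and the median log2 fold change was 0.22. SRRM2, a large scaffold protein of the spliceosome, ranged from 306 CPM through 413 to 626 pre-treatment, from 332 through 421 to 785 post-treatment and from 918 through 1154 to 1349 at washout. All washout libraries, that of animal 26292 being the lowest, lay above all others (log2 fold change 1.27, SE 0.14, adjusted p = 4.39e-06). LUC7L3 and LUC7L, partners of the U1 snRNP, rose by 1.37 and 1.26, and HNRNPH1, an hnRNP that binds G-rich RNA, by 0.95. TRA2A and SRSF4, serine/arginine-rich splicing regulators, rose by 0.61 (SE 0.07) and 0.55 (SE 0.06). Washout and pre-treatment did not overlap for any of these 6, against 2.03% of all genes lying above every pre-treatment library. Naming list members in order of p favours such genes. CLK1, the kinase that phosphorylates SR proteins, rose by 1.59 (SE 0.21), and LENG8 by 1.68 (SE 0.17); both were chosen after their values were seen. Summed over the 38 genes, the level was 5454 to 6553 CPM pre-treatment, 5615 to 6971 post-treatment and 7072 to 8527 at washout, higher in all 8 animals and without overlap. The count of higher genes was 15 among the animals with both libraries in one series and 13 without the washout libraries of 23004 and 26292, where 2 were lower.

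Zinc finger protein genes, most of them KRAB-type repressors in clustered families whose near-identical members make read assignment uncertain, showed the same direction. Of 379 tested, 121 were DE higher and 19 lower (31.9% and 5.01%, against 12.5% and 7.96% of all genes), with a median log2 fold change of 0.16. ZNF26 rose from a median of 9.52 to 24.8 CPM, without overlap (log2 fold change 1.41, SE 0.10, adjusted p = 2.80e-08), and ZNF222 from 10.1 to 20.1 CPM (1.08, SE 0.09, adjusted p = 8.05e-07). Both were already slightly higher post-treatment, by 0.32 and 0.35 (adjusted p = 0.0279 and 0.0165). The count of higher genes was 55 among the 4 animals with both libraries in one series. That fit called fewer genes of all kinds, 1151 higher of 13547 tested, against 1671 of 13367.

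The lists of mRNA decay and chromatin regulators held DE genes of both directions. Of 28 genes of mRNA decay and silencing, 7 were DE higher and 4 lower (25% and 14.3%, against 12.5% and 7.96% of all genes), RC3H2 being the gene with the smallest p-value. Of 33 chromatin regulators, 5 were DE higher and 6 lower (15.2% and 18.2%), the higher share lying near that of all genes. KDM5A, a demethylase of histone H3 lysine 4, ranged from 20.7 CPM through 30.5 to 45.8 pre-treatment and from 8.95 through 9.96 to 16.7 at washout, without overlap (log2 fold change -1.59, SE 0.13, adjusted p = 2.60e-07). NCOA2, a nuclear receptor coactivator, fell by 1.16 on the log2 scale (log2 fold change -1.16, SE 0.14), and DNMT3A, a de novo DNA methyltransferase, rose by 0.76 (SE 0.12) without overlap. Leaving out single libraries or animals moved the higher chromatin genes between 1 and 7, and the animals with both libraries in one series gave 2 higher and 3 lower.

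**Figure D3:**
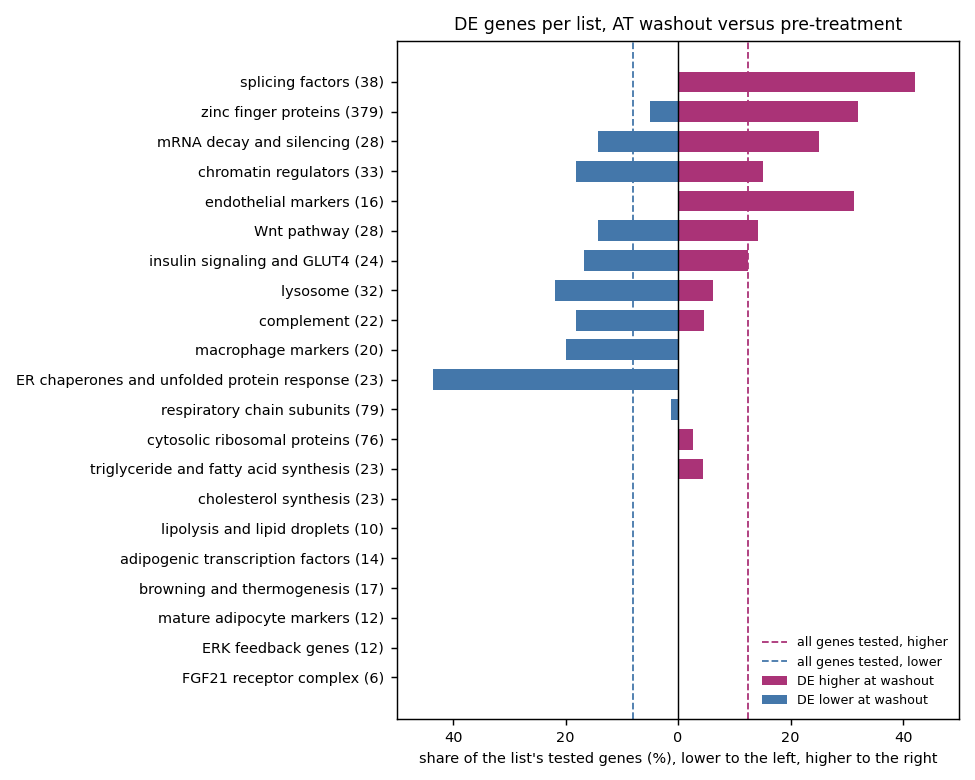
Share of the tested genes of 21 lists (numbers tested in parentheses) that were DE higher (right) or lower (left) at washout than pre-treatment, with dashed lines at the 12.5% and 7.96% of all genes. Splicing factors reach 42.1% on the higher side and ER chaperones 43.5% on the lower side, and 7 lists at the bottom have no DE gene.

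Genes of protein folding in the endoplasmic reticulum (ER) had lower levels at washout. Of 23 ER chaperone and unfolded protein response genes, 10 were DE lower (43.5%, against 7.96% of all genes) and 0 higher by edgeR, with 12 lower by DESeq2, 14 by voomWithQualityWeights and 15 at an unadjusted p under 0.05. All 23 had a fitted level below pre-treatment, with a median log2 fold change of -0.33, against -0.10 post-treatment. Their summed level had medians of 7506.5 CPM pre-treatment, 6177 CPM post-treatment and 6219 CPM at washout, so the sum was already lower post-treatment. ATF6, a sensor of misfolded protein, ranged from 85.1 CPM through 91.7 to 112 pre-treatment and from 58.3 through 64.7 to 94.4 at washout, the highest washout value being that of animal 26292 and the next 67.4 CPM (change of -0.49 in log2, SE 0.09, adjusted p = 3.01e-04, and -0.58 without that library). PDIA6, a disulfide isomerase, had medians of 218, 160 and 162 CPM, and was DE lower both post-treatment (-0.35, adjusted p = 0.0130) and at washout (-0.44, SE 0.09, adjusted p = 0.00111). SEL1L, of the ER-associated degradation complex, fell by 0.59 on the log2 scale (log2 fold change -0.59, SE 0.13, adjusted p = 0.00334) in all 8 animals. DNAJC3, a co-chaperone, and the lectin chaperone calnexin (CANX) had log2 fold changes of -0.33 each, with adjusted p-values of 0.0155 and 0.0248, and lost the call under 2 and 8 of 32 alternatives. The number of lower genes was sensitive to scaling, 3 with library size only, was 9 without the washout libraries of 23004 and 26292, and was 4 to 12 when single libraries or animals were left out.

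Single macrophage and complement genes were lower at washout, with a wide spread between animals. Of 20 macrophage markers, 4 were DE lower (20%, against 7.96% of all genes) and 0 higher by edgeR, 8 had an unadjusted p under 0.05, and 5 and 13 were lower by DESeq2 and voomWithQualityWeights, with 0 higher by either. The fitted level was below pre-treatment for 19 of the 20, and the median log2 fold change was -0.75. MRC1, a mannose receptor of tissue macrophages, ranged from 96.7 CPM through 200 to 329 pre-treatment, from 137 through 338 to 781 post-treatment and from 43.4 through 80.3 to 251 at washout. All 8 animals were lower, the values of 26292 and 23004 at washout being 251 and 204 CPM and those of the other 6 at most 106 CPM (change of -1.17 in log2, SE 0.31, adjusted p = 0.00959, and -1.64 without those 2 libraries). CD163, the hemoglobin scavenger receptor, and CSF1R, the receptor for macrophage colony-stimulating factor, were lower in all 8 animals (log2 fold changes -0.79 and -0.78, adjusted p = 0.00814 and 0.0267), and FOLR2, the folate receptor of resident macrophages, in 7 of 8 (-1.05, adjusted p = 0.00478). The call of CSF1R was lost under 10 of 32 alternatives. In AT biopsies, fewer cells of a type and less RNA per cell cannot be told apart.

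The number of DE macrophage genes depended on the libraries that stood apart. Without the washout libraries of 23004 and 26292, 13 of the 20 markers were DE lower, and among the animals with both libraries in one series 9 were. Without the animal term in the model, FOLR2, CD163, MRC1 and CSF1R were all lost. All 20 markers summed to medians of 14689 CPM pre-treatment and 13344 CPM at washout, higher at washout in 2 of 8 animals. Leaving out LPL, which adipocytes also express, a choice made after the values were seen, the other 19 markers summed to 1985 to 6983 CPM pre-treatment (median 4070), 4041 to 19845 CPM post-treatment (median 8223) and 1403 to 7784 CPM at washout (median 2140), and 7 of the 8 animals were lower at washout than pre-treatment. The washout libraries of 23004 and 26292 held the highest of these washout sums, 7784 and 4582 CPM, the next being 2293 CPM in animal 24849. Both the fit without them and that of the one-series animals leave them out. This lowers the washout level by construction, so those counts are no independent measure of the decrease. The C1q genes of complement, made mainly by macrophages, fell together. C1QB had medians of 163, 210 and 76.3 CPM (log2 fold change 0.96 post-treatment, adjusted p = 0.0238, and -1.16 at washout, SE 0.28, adjusted p = 0.00520), and C1QA and C1QC had washout log2 fold changes of -1.0 and -1.16 (adjusted p = 0.00284 and 0.00295) after post-treatment ones of 0.74 and 0.90. Of all 22 complement genes, 4 were DE lower and 1 higher (18.2% and 4.55%), 15 had a fitted level below pre-treatment and 7 above, and their summed level was higher at washout in 3 of 8 animals. Of the 32 lysosomal genes, 7 were DE lower and 2 higher (21.9% and 6.25%, median log2 fold change -0.32), and 1 to 12 were lower when single libraries or animals were left out.

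The DE endothelial markers were all higher at washout. Of 16 tested, 5 were DE higher (31.2%, against 12.5% of all genes) and 0 lower by edgeR, 7 had an unadjusted p under 0.05, and DESeq2 and voomWithQualityWeights each called 1 lower. Without the washout libraries of 23004 and 26292, 4 were DE higher. ROBO4, a guidance receptor of vascular endothelium, ranged from 30.6 CPM through 66.3 to 88.1 pre-treatment and from 47.7 through 130 to 156 at washout, higher in 7 of 8 animals (log2 fold change 0.88, SE 0.19, adjusted p = 0.00271). TIE1, an angiopoietin receptor family kinase, rose by 0.66 (SE 0.13, adjusted p = 8.01e-04), and CDH5 and EMCN, the vascular endothelial cadherin and endomucin, by 0.52 and 0.50 (adjusted p = 0.0197 and 0.0187, each lost under 5 of 32 alternatives). VEGFA, the main angiogenic growth factor, ranged from 37.4 CPM through 60.7 to 91.0 pre-treatment and from 69.2 through 102 to 211 at washout and rose in all 8 animals (log2 fold change 0.74, SE 0.18, adjusted p = 0.00457). The 16 endothelial markers summed to medians of 2022 CPM pre-treatment and 2390 CPM at washout, and the animal that was not higher, 26292, had the lowest washout sum, 1331 CPM.

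**Figure D4:**
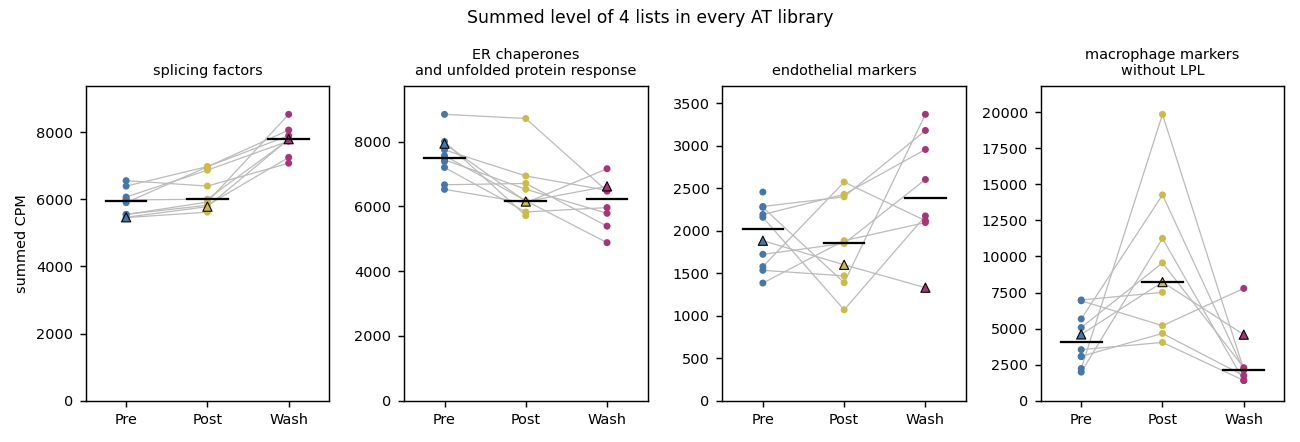
Summed CPM of the tested genes of 4 lists in every AT library by time point, with lines joining the libraries of an animal, bars at the medians and triangles for animal 26292. Splicing factors are higher at washout in all 8 animals (7072 to 8527 CPM), ER chaperones are lower in 7 of 8, endothelial markers are higher in 7 of 8, and macrophage markers without LPL are lower in 7 of 8. The sums of several other marker lists, not drawn here, were lower in as many animals.

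The signaling lists held DE genes of both directions. Of 24 genes of insulin signaling and GLUT4, 3 were DE higher and 4 lower (12.5% and 16.7%, against 12.5% and 7.96% of all genes). GRB10, an adapter that inhibits the insulin receptor, ranged from 29.5 CPM through 48.0 to 63.4 pre-treatment and from 72.9 through 95.3 to 124 at washout, without overlap (log2 fold change 1.01, SE 0.13, adjusted p = 1.30e-05). TSC2, an inhibitor of mTORC1, rose by 0.63 (SE 0.12, adjusted p = 6.94e-04). PIK3CA, a catalytic subunit of PI 3-kinase, fell in all 8 animals from a median of 62.6 to 33.8 CPM (change of -0.82 in log2, SE 0.13, adjusted p = 1.73e-04), and GSK3B, a kinase of glycogen synthase and of beta-catenin, from 37.4 to 21.8 CPM (-0.72, SE 0.10, adjusted p = 5.37e-05). Of 28 Wnt pathway genes, 4 were DE higher and 4 lower (14.3% each way), the higher share in both lists lying at or near that of all genes. LRP6, GSK3B and APC, a scaffold of the beta-catenin destruction complex (-0.56, SE 0.10, adjusted p = 3.03e-04), fell, and DVL3, a Dishevelled protein, rose by 0.74 (SE 0.08, adjusted p = 3.92e-06) without overlap.

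The lists of stress, interferon and clock genes had 2 to 3 DE genes each. Their shares, 15.8%, 6.25% and 15%, lay below the 20.5% of all genes, so the genes named are described singly and not as results of the lists. Integrated stress response genes were DE lower for 15.8%, against 7.96% of all genes. Of 19 integrated stress response genes, 3 were DE lower and 0 higher by edgeR, DESeq2 and voomWithQualityWeights, with 3 at an unadjusted p under 0.05. SLC7A11, the cystine transporter subunit, ranged from 0.51 CPM through 2.67 to 7.94 pre-treatment, from 0.29 through 0.94 to 1.76 post-treatment and from 0.11 through 0.42 to 0.87 at washout. It had fallen post-treatment (log2 fold change -1.54, adjusted p = 8.59e-04) and was lower still at washout relative to pre-treatment (-2.54, SE 0.27, adjusted p = 3.68e-06), in all 8 animals. SLC3A2, its partner subunit, had a log2 fold change of -0.40 (adjusted p = 0.0286, lost under 9 of 32 alternatives). Of 32 interferon-stimulated genes, 1 rose and 1 fell by edgeR, with 4 at an unadjusted p under 0.05, 2 lower by DESeq2, 7 lower by voomWithQualityWeights and 6 lower without the washout libraries of 23004 and 26292. STAT2, a transcription factor of type I interferon signaling, rose by 0.62 (SE 0.11, adjusted p = 4.07e-04) in all 8 animals. Of 20 circadian clock genes, 1 was higher and 2 lower. CLOCK fell in all 8 animals from a median of 85.5 to 57.5 CPM (change of -0.61 in log2, SE 0.11, adjusted p = 4.07e-04), its paralog NPAS2 rose in all 8 from 7.97 to 12.4 CPM (0.54, SE 0.15, adjusted p = 0.0134), and NR1D2, a clock repressor, had a log2 fold change of -0.44 (adjusted p = 0.0374, lost under 14 of 32).

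The lists of collagen and progenitor genes had 2 DE genes each, 9.52% and 12.5% of their members, against 20.5% of all genes. The 9.52% of collagen genes DE lower lay near the 7.96% of all genes. Of 16 adipose progenitor markers, 1 was DE higher and 1 lower. PDGFRA, the receptor that marks adipose progenitors, ranged from 37.2 CPM through 86.6 to 140 pre-treatment and from 15.1 through 24.7 to 108 at washout, the highest value being that of animal 26292 and the next 40.8 CPM (change of -1.43 in log2, SE 0.28, adjusted p = 9.66e-04, and -1.71 without that library). F3, tissue factor, rose in all 8 animals from a median of 23.9 to 46.4 CPM (0.95, SE 0.15, adjusted p = 1.23e-04). Of 21 collagen and fibrillar matrix genes, 2 were DE lower and 0 higher by edgeR, with 5 at an unadjusted p under 0.05, 4 lower by DESeq2 and 4 by voomWithQualityWeights. COL6A3, a chain of type VI collagen, ranged from 89.4 CPM through 174 to 266 pre-treatment, from 95.6 through 264 to 455 post-treatment and from 29.4 through 74.4 to 220 at washout (log2 fold change -1.27, SE 0.21, adjusted p = 1.93e-04). LAMC1, a laminin chain, had a log2 fold change of -0.40 (adjusted p = 0.0466, lost under 15 of 32).

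Skeletal muscle (SM) was biopsied in the same animals and shares no library with AT, and 6 animals had SM libraries at both time points. All 9 of the largest AT decreases that were tested in SM had a positive SM change, for ZBED6 2.74 (SM adjusted p = 0.185), and of the 9 increases 6 had a negative one. None of these genes had an adjusted p under 0.05 in SM by edgeR. For the 9 decreases the SM adjusted p-values ran from 0.0650 for CACNA2D1 to 0.665 for PSD3. Of the 1035 genes DE lower in AT and tested in both tissues, 895 (86.5%) had a positive SM change, against 43.8% of all 12322 genes, and of the 1593 DE higher, 20.9% had. In SM the library number series nearly coincided with the time point, since all 6 washout libraries of these animals were of the last series and 3 of the 6 pre-treatment libraries were of the first, 1 of the middle and 2 of the last. With the series as a covariate, 83.3% of the genes DE lower in AT had a positive SM change and 22.7% of those DE higher. In the 2 animals with both SM libraries in one series, the mean change, on the scale of log2(CPM + 0.5), was positive for 81.5% and 18.1%, against 42.3% of all genes. Of these animals, 19832 had no AT washout library. Single animals varied on the same scale, from 61.3% (23004) to 80.9% (19832) positive among the genes DE lower in AT. Among those DE higher it was 18.2% (19832) to 52.9% (22130, against 50.9% of all genes in that animal). In animal 24849, 5 of the 9 decreases were positive in SM. Over genes, the AT and SM changes had a Pearson's r of -0.37, given as a description because genes share libraries. With the SM change of single animals it ranged from -0.35 (19832) to -0.009 (24849). The difference of the washout change between AT and SM, tested as an interaction, had an adjusted p under 0.05 for 2157 genes (17.5%), the difference being positive for 1125 (9.13%) and negative for 1032 (8.38%). With the series as a covariate in each tissue it was 3906 genes (31.7%), 2037 of the 2157 among them with the same sign. For DDI2 the AT minus SM difference was -4.06 on the log2 scale (SE 0.35, adjusted p = 1.15e-08), with SM medians of 2.16 and 10.4 CPM at pre-treatment and washout.

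**Figure D5:**
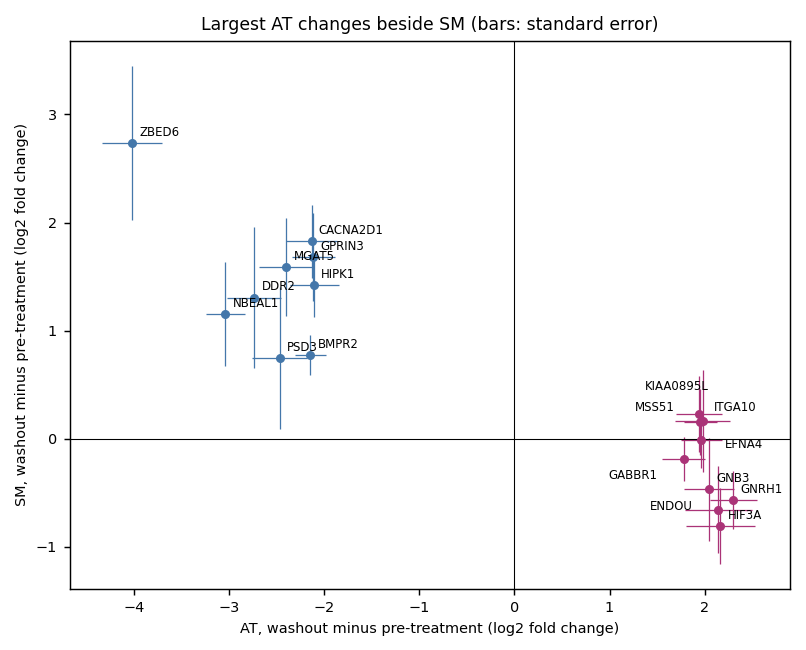
Log2 fold change of washout against pre-treatment in AT (x axis) and SM (y axis) for 9 of the 10 largest AT decreases and 9 of the 10 largest AT increases, all tested in both tissues, with standard errors as bars. The 9 decreases in AT all lie above 0 in SM, from 0.75 to 2.74, and the 9 increases lie between -0.81 and 0.23 in SM.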

How the data were processed

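Stranded mRNA libraries of punch biopsies were sequenced as paired 50-nucleotide reads. The authors aligned them with STAR to the MacaM macaque genome, matched genes to human symbols and deposited raw counts per gene, without normalization; the counting program is not given in the sources used here. The table had 16103 entries, and dropping 70 repeated entries left 16033 genes. Of these, 13367 with at least 0.5 CPM in at least 3 AT libraries were tested.

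Counts of the 27 AT libraries (15756491 to 23940980 at pre-treatment and washout) were normalized by TMM and fitted with time point and animal in edgeR 4.0.16 (robust quasi-likelihood, R 4.3.3), which was tested on simulated data. The spread between libraries left after time point and animal (biological coefficient of variation 0.248), not counting error, limits the precision of all but low genes. P-values are two-sided. DE required a log2 fold change past 0.26 either way with an adjusted p under 0.05. CPM are TMM-scaled. Animals pair the time points: after removal of time point means, pre-treatment and washout libraries of 1 animal had a median r of 0.487 over genes (8 pairs, 0.307 to 0.557), those of different animals -0.060 (72 pairs). The AT minus SM difference was tested as an interaction over 12322 genes, chosen after the data were seen, as was its fit with library series as a covariate, and its calls used no fold change limit. Changes of single SM animals used log2(CPM + 0.5).

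The genes and the 54 lists, 14 of them cell type markers, were chosen with earlier results of these data known, so lists are described by counts and medians only. Genes named were the 10 largest changes each way (mean of at least 5 CPM, same direction in 8 of 8 animals), up to 6 members a list in order of p, and 18 fixed genes; 2 genes that the rule takes are not reported here. Alternatives were DESeq2 1.42.0, voomWithQualityWeights of limma 3.58.1, other scalings, filters, models and sample sets, and each animal or washout library left out. The fit without the washout libraries of 23004 and 26292 was added after the data were seen. Library number series are read from the labels, which name no batch. Overlapping genes were taken from RefSeq names (assembly T2T-MMU8v2.0, not the build of the counts). No column was left unmapped. Sequences and gene lengths were not used here, so levels are not compared between genes. Figures were drawn with matplotlib 3.10.9.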

Additional observations from a re-analysis of the deposited data

Results flagged for a closer look

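The highest or lowest library of a time point stood apart from the others (gap to the nearest library large against the range of the group) in 35 of 184 groups examined for the genes named here, or 19.0%. The nominal rate of the rule, about 1 in 20 groups, holds for independent, normally distributed values. These groups share libraries and hold CPM that were not log-transformed, so the 19.0% cannot be weighed against that rate. Animal 26292 accounted for 17 of the 35 and animal 20275 for 7.

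The washout library of animal 26292 was high for 15 genes, with 8.03 CPM for ZBED6 (next library 1.76), 118 CPM for DDR2 (next 24.4), 7.98 CPM for PSD3, 20.2 CPM for MGAT5, 12.3 CPM for BMPR2, 40.7 CPM for CACNA2D1 and 44.1 CPM for HIPK1. It was also high with 5.24 CPM for DDI2, 13.2 CPM for RC3H2, 67.8 CPM for LRP6, 94.4 CPM for ATF6, 36.0 CPM for NCOA2, 49.2 CPM for APC, 1711 CPM for LAMC1 and 108 CPM for PDGFRA. It was low for TSC2, with 97.8 CPM. The pre-treatment library of the same animal was high for SERPIND1, with 2.39 CPM.

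Animal 20275 was high pre-treatment for ARFGEF3 (27.8 CPM), CACNA2D1 (124 CPM), PIK3CA (103 CPM), SEL1L (566 CPM), SLC7A11 (7.94 CPM) and APC (85.8 CPM), and at washout for ARFGEF3 (4.60 CPM). Animal 21189 was high at washout for GNB3 (24.2 CPM). Animal 20456 was high pre-treatment for UCP1 (5.92 CPM), HADHA (632 CPM) and LDHA (819 CPM). Animal 20261 was high for ANGPTL8 pre-treatment (143 CPM) and at washout (191 CPM), and low for ABCG1 at washout (44.1 CPM). Single flags were FGF21 at washout in animal 24849 (2.16 CPM), RPL31 pre-treatment in animal 22130 (70.1 CPM), ZNF222 pre-treatment in animal 23004, which was low (4.99 CPM), and CSF1R at washout in animal 23004 (230.5 CPM).

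The washout change differed between AT and SM, by the interaction test, for 21 of the genes named, where 17.5% of all genes tested in both tissues did. They were 9 increases and 9 decreases picked for their large AT change, and DDI2, RC3H2 and LRP6, chosen with their SM increase known. This choice favours a difference, so the 21 are listed as a description and their number is not weighed against the 17.5%. The AT minus SM difference on the log2 scale was positive for GNRH1 (2.86), HIF3A (2.91), ENDOU (2.87), GNB3 (2.48), ITGA10 (1.80), EFNA4 (1.92), MSS51 (1.75), KIAA0895L (1.68) and GABBR1 (1.91), with edgeR adjusted p-values from 3.49e-06 for GNRH1 to 0.0233 for ITGA10. It was negative for ZBED6 (-6.93), NBEAL1 (-4.29), DDR2 (-4.14), PSD3 (-3.28), MGAT5 (-4.19), BMPR2 (-2.98), CACNA2D1 (-4.04), GPRIN3 (-3.93), HIPK1 (-3.61), DDI2 (-4.06), RC3H2 (-4.32) and LRP6 (-3.69), with edgeR adjusted p-values from 1.15e-08 for BMPR2 and DDI2 to 0.00108 for PSD3. All but ITGA10 kept an adjusted p under 0.05 under each alternative run for this test. ITGA10 had edgeR adjusted p-values of 0.0563 without animal 19832 and 0.105 without animal 23004.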

How the results depend on the processing

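Of the 78 DE genes named, 58 kept their call under all 32 alternatives and 20 lost it under at least 1. The counts of all and of higher DE genes stayed within 1.5 times their reported values. The count of lower genes was 590 with library size only, which raised the median log2 fold change of all genes from -0.02 to 0.08, and 1802 with voomWithQualityWeights, against 1064; the cause was not tested. The fit with no replicate block, that is, without the pairing by animal, gave 2422 DE genes and lost the calls of FOLR2, CD163, MRC1, CSF1R and 5 other named genes. Of genes without a call, ADIPOQ gained one under 7 alternatives, KLB under 6, SLC38A3 under 3, and AADACL3 and FGF21 under 1 each. Of genes without a call, 5 with log2 fold changes smaller than their SE changed sign. UCP1 (0.02) was -0.15 with the library number series as covariate, -0.013 with no filter on low counts, -0.71 with no replicate block, -0.21 in animals with both libraries in one series, -0.44 with voomWithQualityWeights and -0.042 without the washout libraries of 23004 and 26292. CETP (0.04) was -0.023 with voomWithQualityWeights and -0.0031 without those 2 libraries, LEP (-0.06) was 0.044 with library size only and 0.096 without them, SERPIND1 (-0.32) was 0.11 in animals with both libraries in one series and 0.11 without them, and KDM3A (0.15) was -0.088 without them. Leaving out 1 animal or washout library gave -0.39 to 0.41 for UCP1, -0.093 to 0.18 for CETP, -0.27 to 0.079 for LEP and -0.62 to 0.20 for SERPIND1, and 2133 to 2959 DE genes, 1260 to 1755 higher and 860 to 1305 lower. Depth limits UCP1, FGF21 and SERPIND1, at or below a few CPM.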

Other observations

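Lists of markers of other cell types had 0 to 3 DE genes each at washout, where 20.5% of all genes tested were DE. Smooth muscle and pericyte markers were DE higher for 2 of 11 and lower for 0 (7 at an unadjusted p under 0.05 by edgeR, 4 and 5 higher by DESeq2 and voomWithQualityWeights, median log2 fold change 0.45), and mast cell markers higher for 2 and lower for 1 of 7. T and NK cell markers were higher for 1 and lower for 1 of 17, B and plasma cell markers higher for 1 of 8, neuron and Schwann cell markers higher for 1 of 13, skeletal muscle markers higher for 1 of 16 and neutrophil markers lower for 1 of 10. The summed levels of T and NK cell, neutrophil, and neuron and Schwann cell markers were each higher at washout in 1 of 8 animals. That number was the same for ER chaperones, macrophage markers without LPL and mature adipocyte markers. The T and NK cell sum had medians of 155 CPM pre-treatment and 93.6 CPM at washout. The 5 erythroid markers tested summed to 327 to 10553 CPM pre-treatment and 457 to 11988 CPM at washout, a wide spread in both groups, and 0 were DE by edgeR, DESeq2 or voomWithQualityWeights and 0 had an unadjusted p under 0.05. Among 11 skin epithelial markers 0 were DE by edgeR (0 at an unadjusted p under 0.05, 1 by DESeq2, 3 by voomWithQualityWeights), and among 5 mesothelial markers 0 (1, 1 and 1).

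Of further lists, cytosolic heat shock proteins were DE lower for 3 of 14 and higher for 0 by edgeR (7 at an unadjusted p under 0.05, 3 and 6 lower by DESeq2 and voomWithQualityWeights), and proliferation genes lower for 3 of 26. Mitochondrial ribosomal proteins were higher for 2 and lower for 4 of 71, proteasome subunits lower for 2 of 36, and autophagy and mitophagy genes higher for 2 and lower for 4 of 30. Branched-chain amino acid catabolism had 2 higher and 1 lower of 22, translation initiation and elongation 1 and 3 of 31, and adipokines 2 and 1 of 13. Immediate early genes had 1 higher of 21, glucocorticoid response genes 1 lower of 17, NRF2 antioxidant genes 1 lower of 16, matrix remodeling and crosslinking genes 1 lower of 30, lipoprotein uptake and cholesterol efflux genes 1 lower of 17, and hypoxia response genes 1 higher and 1 lower of 22. Over all genes tested, 12.5% were higher and 7.96% lower.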
